A study of Rattus norvegicus with 16 samples.

Results

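The genes described here are 8 that mark astrocytes or serve their uptake of glutamate: Gfap, S100b, Slc1a2, Slc1a3, Aqp4, Gja1, Aldh1l1 and Glul. They were chosen by name, with earlier results of these data known. Of the 8, 6 had a probe whose RefSeq target carried the symbol, among 13903 symbols on the array, and Aldh1l1 and Glul were not analysed here. Aqp4 and Slc1a2 each had 2 probes. The brighter one stands for the gene and the other is called the second probe. All 8 probes were well above background on all 16 arrays.

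Hippocampal RNA of male Sprague-Dawley rats, bought at a weight of 250 g, was hybridised to 16 one-colour Agilent arrays, 4 for each of 4 groups. Control rats were not stressed. The depression-susceptible, anxiety-susceptible and insusceptible rats had all gone through 8 weeks of chronic mild stress (CMS), a regime of small, varied stressors. The age of the rats, the behavioural criteria for the 3 stressed groups and the number of animals behind the 4 arrays of a group are not given in the sources used here. Levels are on the log2 scale, relative to the 75th percentile of the processed signal of the same array, so that 0 is the brightness of the spot at that percentile. They compare arrays for 1 probe and do not rank genes. In whole tissue, fewer astrocytes and less RNA per astrocyte cannot be told apart.

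The spread between arrays that shared group and slide was within that of repeated spots of a probe on an array (ratio of the 2 standard deviations 0.74 to 0.94), and such arrays were averaged. This left 6 samples: control and depression-susceptible on each of slides 1 and 2, anxiety-susceptible on slide 3 and insusceptible on slide 4. Errors are standard errors (SE) from limma over these 6 samples and measure the spread between slides, not between animals; the lone samples are assumed to vary like the others. On slides 1 and 2, positions 1 and 2 held controls, and positions 3 and 4 held depression-susceptible arrays. Slides 3 and 4 were scanned on day 2, and the 75th percentile signal was 1077 to 1248 there against 2997 to 3382 on day 1. For anxiety-susceptible and insusceptible against control, and against depression-susceptible, group, slide and day therefore cannot be told apart, nor can group and slide between these 2. The comparisons with control share the control samples.

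Astrocytes clear glutamate from the synaptic cleft through the transporters Slc1a2 (GLT-1, also EAAT2) and Slc1a3 (GLAST, EAAT1). Inside the cell glutamine synthetase (Glul) turns it into glutamine, which is passed back to neurons. Their processes carry intermediate filaments of Gfap, are joined into a network by gap junctions of Gja1 (connexin 43), and wrap blood vessels with endfeet in which the water channel Aqp4 is concentrated. S100b is a calcium-binding protein that astrocytes also secrete.

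Gfap, S100b and Slc1a3 are the 3 members that passed for depression-susceptible against control once slide was a term in the fit, as given below. That fit called 38.3% of all probes. The sequences just upstream of their starts are shown for that reason. Each is the 250 bases before a start site in RefSeq (assembly GRCr8), 5′ to 3′ on the strand of the gene, with capitals marking the core letters of a nuclear factor I site (TTGGC, which reads GCCAA on the opposite strand). Nuclear factor I proteins, among them Nfia and Nfib, are transcription factors of astrocyte development. Gfap lies at chr10:88361662-88361911, S100b at chr20:12381082-12381331 and 1 of 3 listed starts of Slc1a3 at chr2:59557809-59558058, each on the minus strand.
Gfap: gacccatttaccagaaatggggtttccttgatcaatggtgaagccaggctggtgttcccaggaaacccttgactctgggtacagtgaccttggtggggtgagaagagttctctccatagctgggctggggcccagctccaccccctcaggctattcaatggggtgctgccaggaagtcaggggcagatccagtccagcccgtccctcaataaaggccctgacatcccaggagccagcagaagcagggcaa
S100b: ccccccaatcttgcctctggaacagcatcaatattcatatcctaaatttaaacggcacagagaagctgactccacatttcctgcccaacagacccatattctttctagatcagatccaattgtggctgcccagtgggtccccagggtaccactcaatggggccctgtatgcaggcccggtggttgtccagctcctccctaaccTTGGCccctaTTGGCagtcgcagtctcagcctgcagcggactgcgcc
Slc1a3: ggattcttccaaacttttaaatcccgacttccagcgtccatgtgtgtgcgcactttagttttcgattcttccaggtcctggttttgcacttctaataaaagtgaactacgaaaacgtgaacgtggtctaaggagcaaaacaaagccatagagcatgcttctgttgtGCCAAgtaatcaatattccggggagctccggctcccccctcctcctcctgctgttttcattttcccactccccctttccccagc
These letters were found 2 times before S100b and 1 time before Slc1a3, and not in the Gfap window. Of 33469 windows of this length in the table, 40.3% held them. None of the 3 windows held a GC box (GGGCGG, in 30.5% of windows), a TATA box (TATAAA, in 12.9%) or a STAT site (TTCNNNGAA, in 7.67%), searched on both strands. A match describes letters and is not a bound site.

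No member passed the adjusted threshold of 0.05 in any of the 6 comparisons between groups, nor in the F test over the 4 groups, in the fit without slide. With slide as a term, which could be fitted for depression-susceptible against control, Gfap, S100b and Slc1a3 passed there, as described after the single genes. The fit with slide called 38.3% of all probes and had 1 residual degree of freedom. With quantile normalization as well, it called 0 of 6 members, beside 26.3% of all probes. Over all 17885 probes tested, limma without slide called 9.90% of probes for depression-susceptible against control, 30.0% for anxiety-susceptible against control and 30.2% for insusceptible against control. The shares were 0.0839% for depression-susceptible against insusceptible, 0.0783% for anxiety-susceptible against insusceptible, 0.229% for depression-susceptible against anxiety-susceptible, and 23.4% for the F test. At an unadjusted p under the same limit, Gfap was the 1 member of 6 counted in depression-susceptible against control, and 0 were counted in the other comparisons and the F test. At that limit 30.5%, 46.7% and 46.9% of all probes were counted for depression-susceptible, anxiety-susceptible and insusceptible against control, 30.5% for depression-susceptible against insusceptible, 11.1% for anxiety-susceptible against insusceptible, 31.5% for depression-susceptible against anxiety-susceptible and 46.3% for the F test. The second Aqp4 probe, not among the 6, had an unadjusted p of 0.0313 in limma for depression-susceptible against anxiety-susceptible. The median difference of the 6 members was -0.33 for depression-susceptible, -0.061 for anxiety-susceptible and -0.086 for insusceptible against control, beside medians over all probes of -0.035, -0.048 and 0.014.

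**Figure D1:**
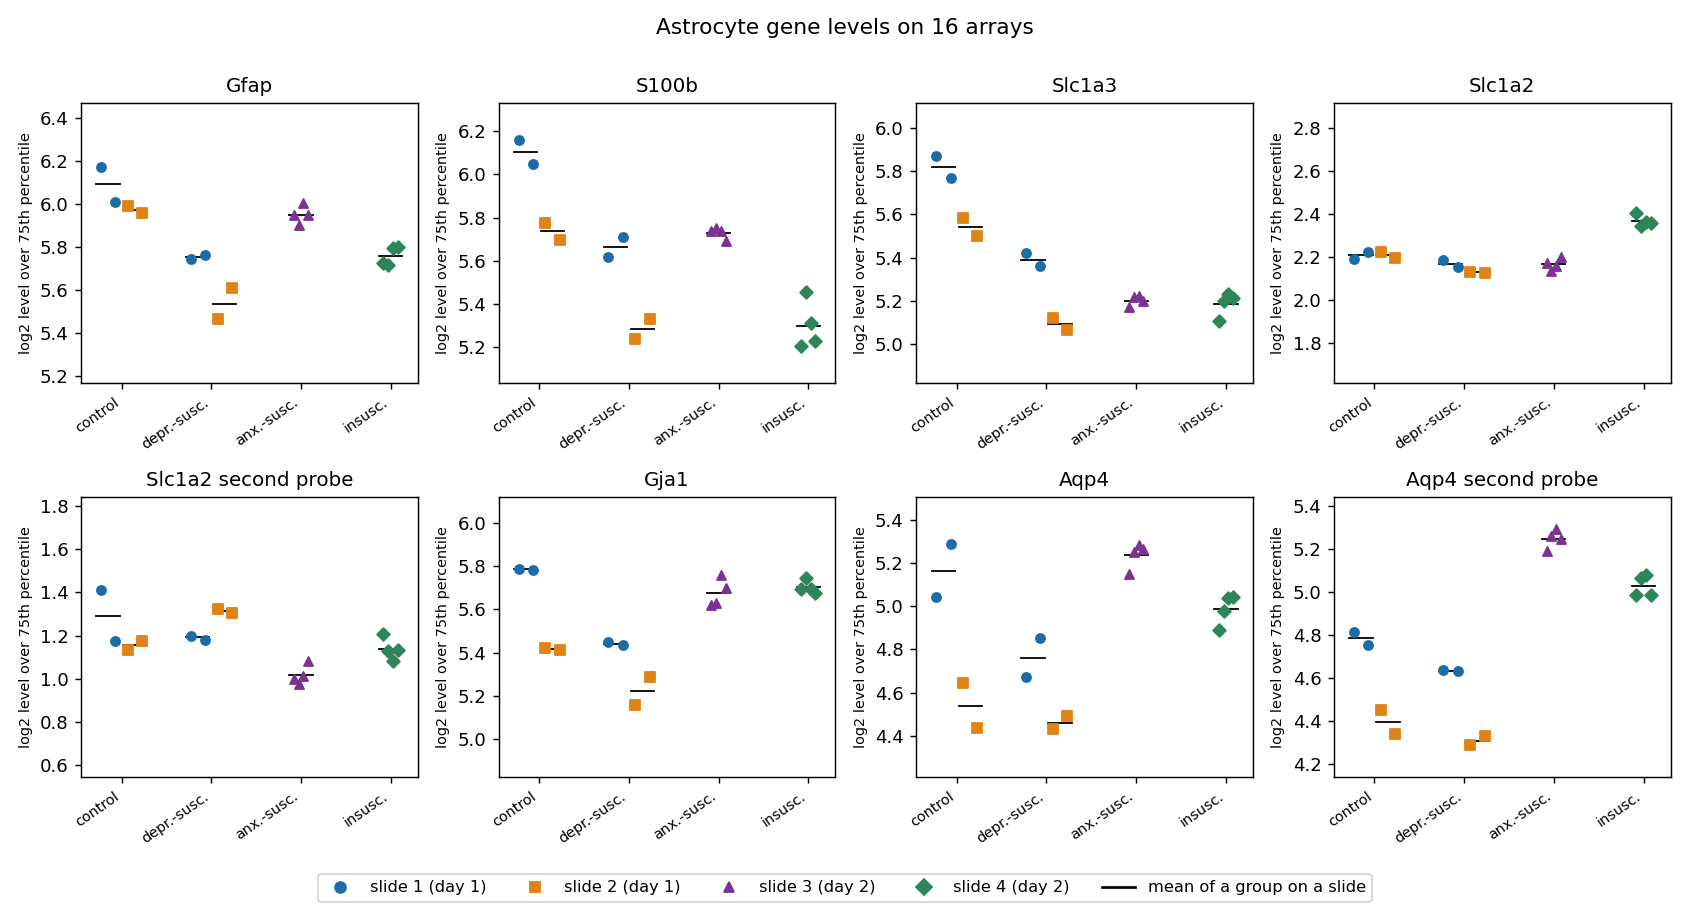
Log2 level over the array's 75th percentile (y axis, equal span in every panel) for each member probe in the 4 groups (x axis). Each point is 1 array, its shape and colour give the slide and day, and each black line is the mean of a group on a slide, 1 of the 6 samples. Slide 1 lay above slide 2 within control and within depression-susceptible for Gfap, S100b, Slc1a3, Gja1 and both Aqp4 probes.

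Gfap and S100b are the astrocyte markers of the cytoskeleton and of calcium binding. Gfap stood at 6.09 and 5.97 in the control samples (slides 1 and 2, the order kept below), 5.75 and 5.54 in the depression-susceptible ones, 5.95 in the anxiety-susceptible one and 5.76 in the insusceptible one. Every control array, from 5.96 to 6.17, lay above every depression-susceptible array, from 5.46 to 5.76, and above every insusceptible array, from 5.71 to 5.80. Anxiety-susceptible arrays, from 5.90 to 6.001, overlapped the controls. The share of all probes whose arrays did not overlap is not given, so overlap here and below is a description only. With the 16 arrays as samples, limma called 50.7%, 71.3% and 73.0% of all probes for depression-susceptible, anxiety-susceptible and insusceptible against control. Gfap differed by -0.39 between depression-susceptible and control (SE 0.11, adjusted p = 0.117, 1.31-fold lower; 0.0223 with slide as a term), by -0.27 for insusceptible (SE 0.14, adjusted p = 0.202) and by -0.081 for anxiety-susceptible (SE 0.14, adjusted p = 0.678). In the order control, anxiety-susceptible, insusceptible, depression-susceptible, the difference between neighbours passed the test nowhere.

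S100b stood at 6.10 and 5.74 in control samples, 5.66 and 5.28 in depression-susceptible ones, 5.73 in the anxiety-susceptible one and 5.30 in the insusceptible one. Control and depression-susceptible arrays overlapped (5.69 to 6.16 and 5.23 to 5.71), because slide 1 was higher than slide 2 by 0.37 in control and by 0.38 in depression-susceptible. Insusceptible arrays, from 5.21 to 5.45, lay below every control array. S100b differed by -0.45 for depression-susceptible (SE 0.20, adjusted p = 0.231; 0.0154 with slide as a term), by -0.62 for insusceptible (SE 0.25, adjusted p = 0.131) and by -0.19 for anxiety-susceptible (SE 0.25, adjusted p = 0.584) against control. Its order was control, anxiety-susceptible, depression-susceptible, insusceptible, and no neighbours differed past the threshold.

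Slc1a3, the first of the 2 glutamate transporters, stood at 5.82 and 5.54 in control samples, 5.39 and 5.09 in depression-susceptible ones, 5.20 in the anxiety-susceptible one and 5.19 in the insusceptible one. Its lowest control array, at 5.50, was above the highest array of each stressed group, at 5.42, 5.22 and 5.23. The differences from control were -0.44 (SE 0.16, adjusted p = 0.17; 0.0156 with slide as a term), -0.48 (SE 0.20, adjusted p = 0.14) and -0.50 (SE 0.20, adjusted p = 0.131) for depression-susceptible, anxiety-susceptible and insusceptible. The stressed groups lay within 0.055 of each other. The 95% confidence intervals of the differences from control ran from -0.89 to 0.011, from -1.03 to 0.071 and from -1.05 to 0.057, and all 3 held 0.

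Slc1a2, the transporter that carries most glutamate uptake in the adult forebrain, stood at 2.21 and 2.21 in control samples, 2.17 and 2.13 in depression-susceptible ones, 2.17 in the anxiety-susceptible one and 2.37 in the insusceptible one. Insusceptible arrays, from 2.34 to 2.40, lay above every array of the other groups, the highest of which was 2.22. The differences from control were -0.059 for depression-susceptible (SE 0.072, adjusted p = 0.622), -0.041 for anxiety-susceptible (SE 0.088, adjusted p = 0.744) and 0.16 for insusceptible (SE 0.088, adjusted p = 0.229). The 95% interval for depression-susceptible ran from -0.26 to 0.14. The second Slc1a2 probe did not follow this order: it stood at 1.29 and 1.15 in control samples, 1.19 and 1.32 in depression-susceptible ones, 1.02 in the anxiety-susceptible one and 1.14 in the insusceptible one. The probes had opposite signs for insusceptible against control (0.16 and -0.087), for depression-susceptible against insusceptible (-0.22 and 0.12), for depression-susceptible against control (-0.059 and 0.03) and for depression-susceptible against anxiety-susceptible (-0.019 and 0.24), and neither passed the test in any of these.

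Aqp4, the endfoot water channel, and Gja1, the gap junction protein, had their lowest group means in depression-susceptible under 75th percentile scaling. With quantile normalization, depression-susceptible minus control on slides 1 and 2 was -0.009 and 0.259 for Aqp4. For Gja1 it was 0.126 and 0.258. Aqp4 stood at 5.17 and 4.54 in control samples, 4.76 and 4.46 in depression-susceptible ones, 5.24 in the anxiety-susceptible one and 4.99 in the insusceptible one. Its second probe stood at 4.78 and 4.39 in control samples, 4.63 and 4.31 in depression-susceptible ones, 5.25 in the anxiety-susceptible one and 5.03 in the insusceptible one. On both probes the anxiety-susceptible arrays lay above the insusceptible ones, and these above the depression-susceptible ones, without overlap. Only on the second probe were both groups of day 2 clear of the controls, whose highest array was 4.82 there. On the brighter probe the control slides differed by 0.63, more than any difference of a stressed group from control.

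Against control, Aqp4 differed by -0.24 in depression-susceptible (SE 0.26, adjusted p = 0.575), 0.39 in anxiety-susceptible (SE 0.32, adjusted p = 0.392) and 0.14 in insusceptible (SE 0.32, adjusted p = 0.761). For the second probe these were -0.12 (SE 0.19, adjusted p = 0.717), 0.66 (SE 0.24, adjusted p = 0.108) and 0.44 (SE 0.24, adjusted p = 0.225). The largest difference between stressed groups among the member probes was that of the second Aqp4 probe for depression-susceptible against anxiety-susceptible, at -0.78 (SE 0.24, adjusted p = 0.126, 1.71-fold lower), and the brighter probe gave -0.63 there (SE 0.32, adjusted p = 0.258). These 2 groups lay on different slides and days.

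Gja1 stood at 5.79 and 5.42 in control samples, 5.44 and 5.22 in depression-susceptible ones, 5.68 in the anxiety-susceptible one and 5.70 in the insusceptible one. Depression-susceptible arrays, from 5.16 to 5.45, lay below every array of the other stressed groups, which were on other slides, from 5.62 to 5.76, and overlapped the controls. Gja1 differed by -0.27 between depression-susceptible and control (SE 0.17, adjusted p = 0.351), by -0.37 between depression-susceptible and insusceptible (SE 0.21, adjusted p = 0.294) and by -0.35 between depression-susceptible and anxiety-susceptible (SE 0.21, adjusted p = 0.318). Anxiety-susceptible and insusceptible differed by -0.025 (95% interval -0.69 to 0.64).

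**Figure D2:**
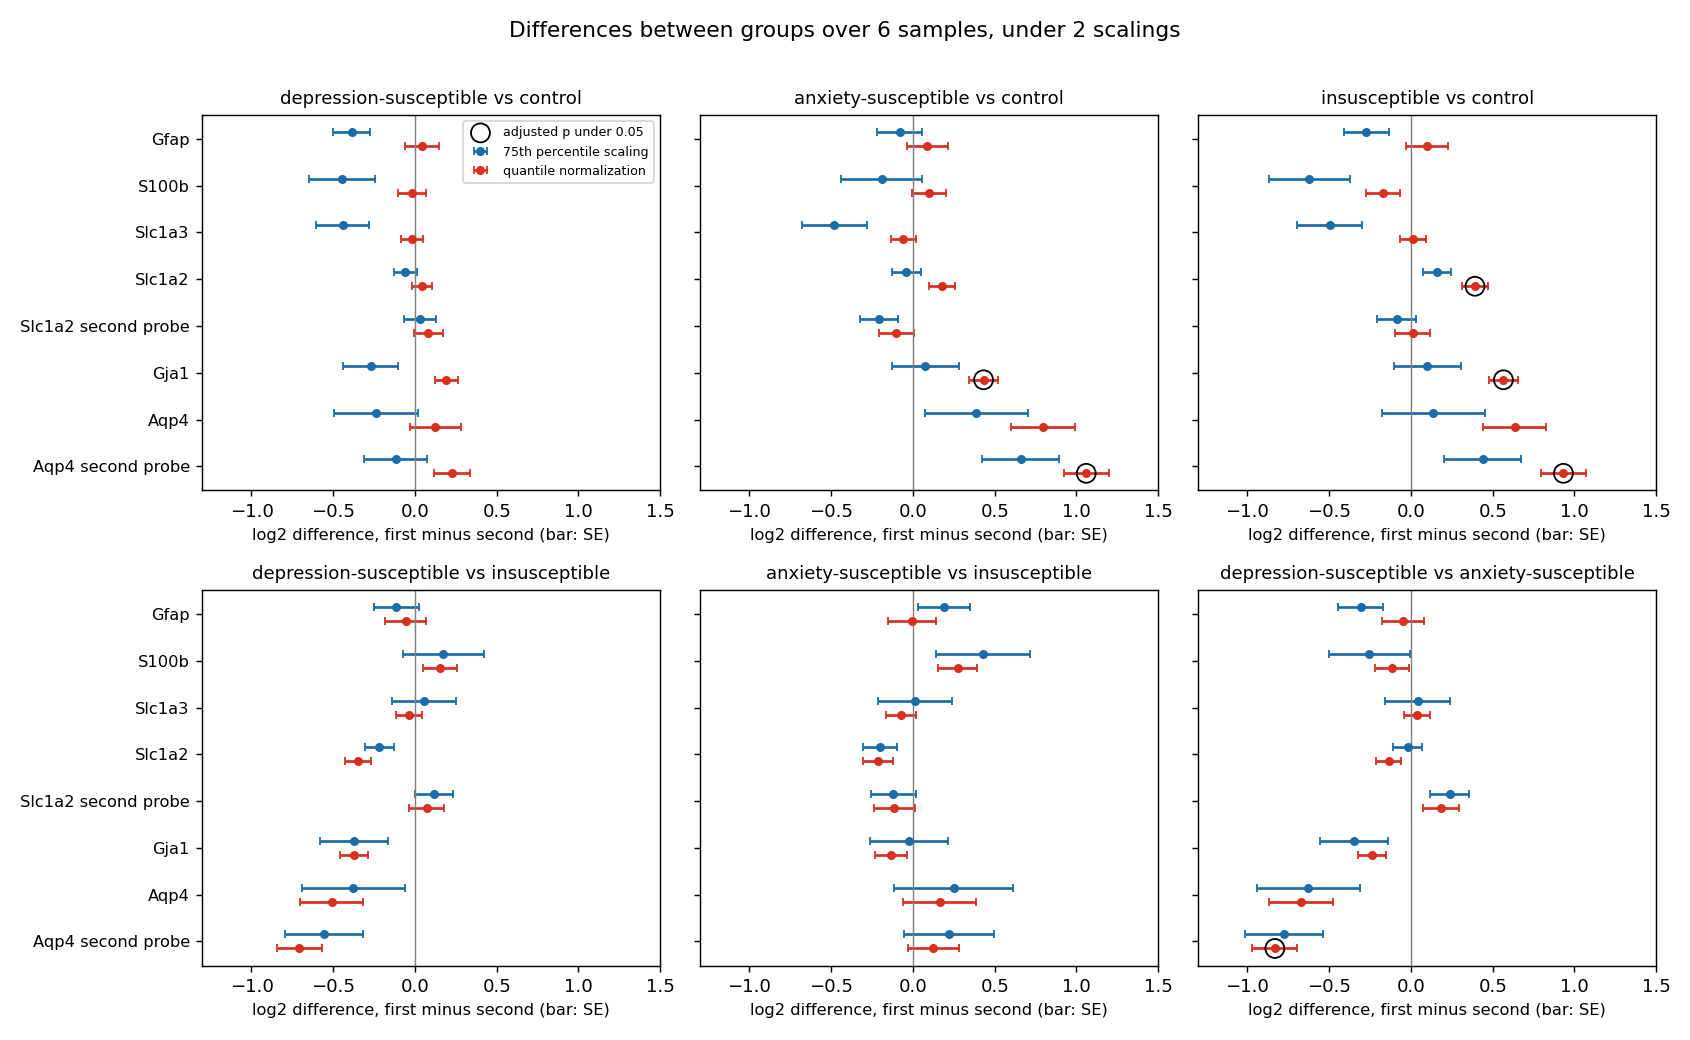
Log2 difference of each member probe in the 6 comparisons (x axis, first group minus second; bars are 1 SE from limma over 6 samples), in blue with 75th percentile scaling and in red with quantile normalization. Circles mark an adjusted p under 0.05, which occurred only with quantile normalization: for Gja1 and the second Aqp4 probe in both groups of day 2 against control, Slc1a2 in insusceptible against control and the second Aqp4 probe in depression-susceptible against anxiety-susceptible.

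The comparison of depression-susceptible with control could be made within slides. Slide 1 gave -0.34 for Gfap, -0.44 for S100b, -0.43 for Slc1a3, -0.35 for Gja1, -0.40 for Aqp4 and -0.038 for Slc1a2. On slide 2 they were -0.44, -0.45, -0.45, -0.20, -0.078 and -0.080. With slide as a term, Gfap (adjusted p = 0.0223), S100b (adjusted p = 0.0154) and Slc1a3 (adjusted p = 0.0156) passed, Gja1 was at 0.0507, Aqp4 at 0.15 and Slc1a2 at 0.392. Over all probes this fit called 38.3%, so 3 of 6 members stand beside a background of that size, and it rests on 1 residual degree of freedom. Taking the 16 arrays as samples sets the spread between arrays of a group as the error. For control and depression-susceptible this holds spread within and between slides, and for the other 2 groups only spread within a slide. That fit called 4, 2 and 4 of 6 members for depression-susceptible, anxiety-susceptible and insusceptible against control, beside 50.7%, 71.3% and 73.0% of all probes. It called 3 members in each comparison between stressed groups, beside 61.9% (depression-susceptible against insusceptible), 37.1% (anxiety-susceptible against insusceptible) and 61.8% of probes, and 6 by the F test, beside 86.6%. With slide as a term and quantile normalization together, 0 of 6 members passed beside 26.3% of all probes: Gfap was at 0.041, S100b at -0.017 and Slc1a3 at -0.018.

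**Figure D3:**
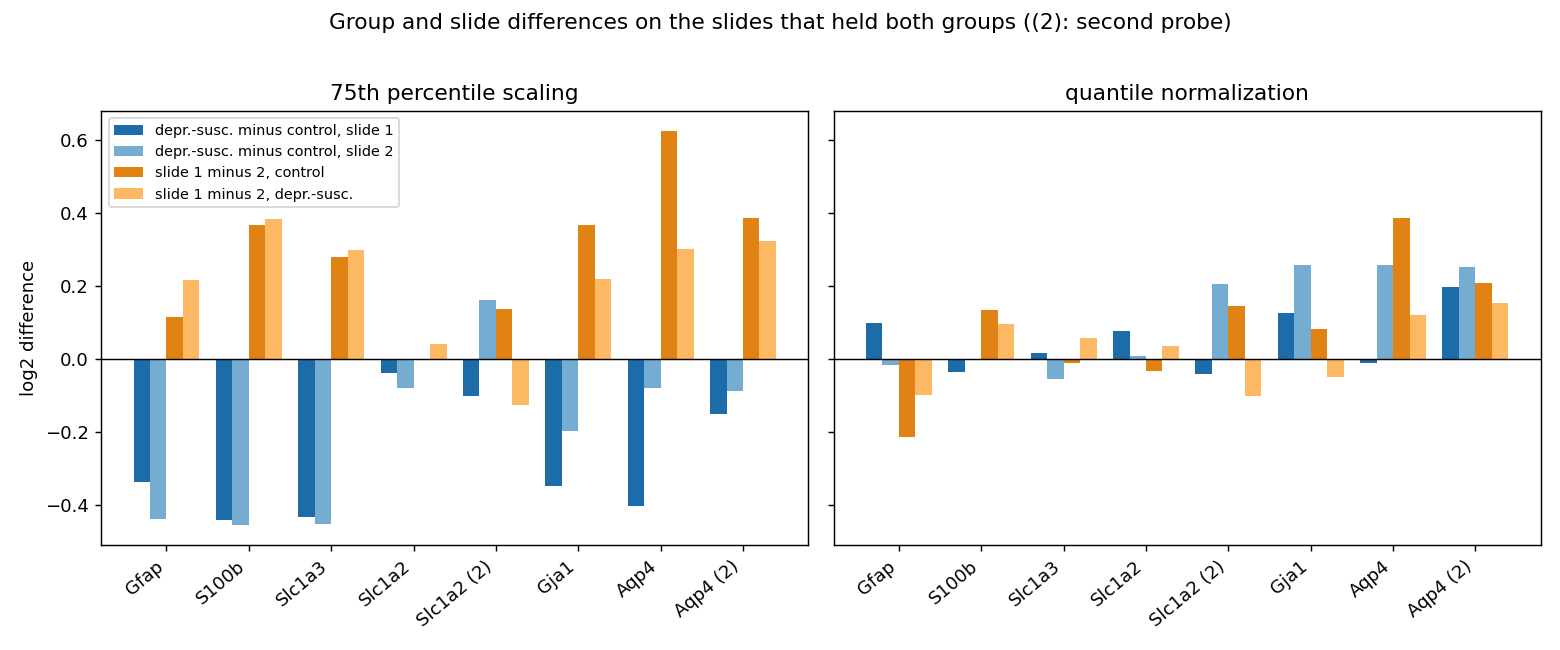
Log2 differences of each member probe on the 2 slides that held both groups: depression-susceptible minus control on each slide (blue) and slide 1 minus slide 2 within each group (orange), with 75th percentile scaling on the left and quantile normalization on the right. On the left the blue bars of Gfap, S100b and Slc1a3 lie between -0.34 and -0.45; on the right they lie between -0.053 and 0.098.

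Most members are bright, and bright probes as a class lay lower in the stressed groups under this scaling. The 586 probes with a mean level of 4.5 to 6.5, the range of the probes of Gfap, S100b, Slc1a3, Gja1 and Aqp4, had a median difference from control of -0.39 in depression-susceptible (quartiles -0.485 and -0.27), -0.35 in anxiety-susceptible (quartiles -0.66 and -0.048) and -0.425 in insusceptible (quartiles -0.75 and -0.12). Gfap, S100b and Slc1a3 lay within these quartiles in all 3 comparisons. Gja1 and both Aqp4 probes lay above the upper quartile in anxiety-susceptible and insusceptible, and both Aqp4 probes did so in depression-susceptible, with Gja1 at its edge. The 3102 probes with a level of 1.5 to 3.5, the range of Slc1a2, had medians of -0.15, -0.28 and -0.25, and Slc1a2 was above the upper quartile of -0.012 in insusceptible. The brightness of a probe thus moved with the differences, and its part in them was not tested.

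**Figure D4:**
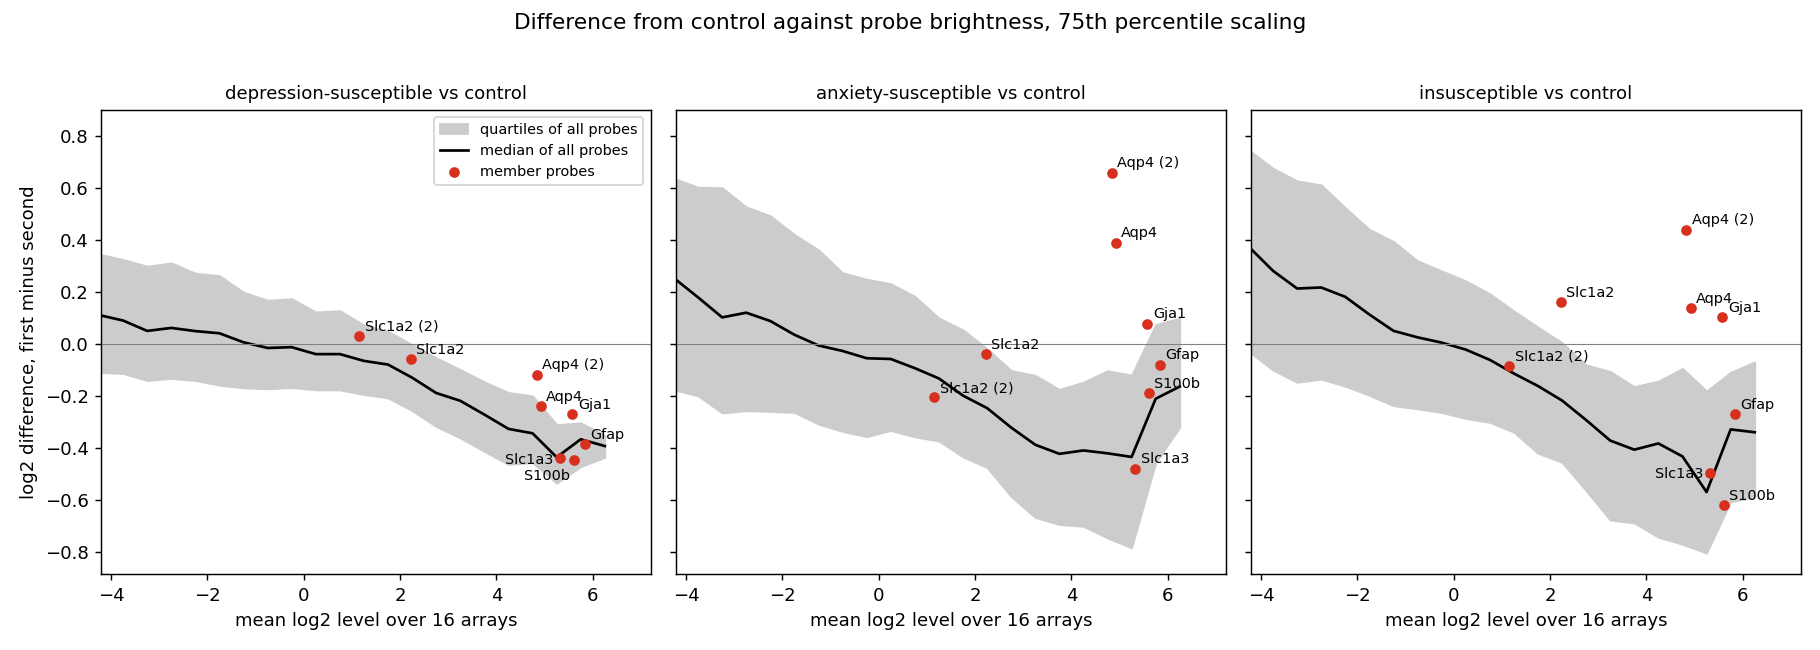
Log2 difference from control (y axis) against the mean log2 level of a probe over 16 arrays (x axis) for each stressed group. The black line and grey band are the median and quartiles of all probes tested in steps of 0.5, and red points are the member probes; bright probes have medians below 0 in all 3 panels, and the Aqp4 probes and Gja1 are above the black line in each.

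Quantile normalization, which gives all arrays one distribution and so removes that shift (median of the bright probes 0.019, 0.0098 and 0.025), moved the members relative to the rest. Gja1 then rose by 0.43 in anxiety-susceptible (SE 0.086, adjusted p = 0.0343) and by 0.57 in insusceptible (SE 0.086, adjusted p = 0.0226) against control. Slc1a2 rose by 0.39 in insusceptible (SE 0.078, adjusted p = 0.0359), while its second probe was at 0.012 there (SE 0.11, adjusted p = 0.944). The second Aqp4 probe rose by 1.06 (SE 0.14, adjusted p = 0.0158) and 0.93 (SE 0.14, adjusted p = 0.0213), and differed by -0.83 between depression-susceptible and anxiety-susceptible (SE 0.14, adjusted p = 0.0464); the brighter probe was at 0.80 (SE 0.19, adjusted p = 0.0512), 0.63 (SE 0.19, adjusted p = 0.0831) and -0.67 (SE 0.19, adjusted p = 0.1). With this normalization 10.1%, 30.5% and 28.6% of all probes were called in depression-susceptible, anxiety-susceptible and insusceptible against control, 4.95% in depression-susceptible against insusceptible, 0.358% in anxiety-susceptible against insusceptible, 10.3% in depression-susceptible against anxiety-susceptible and 27.3% by the F test. The differences of Gfap, S100b and Slc1a3 from control were then within -0.17 and 0.10, and none passed. Scaling to the median instead lowered the median of all probes to -0.15, -0.33 and -0.32 in the 3 comparisons and called no member. Of the genes named below as higher than control, those that no longer passed with that scaling have its value and adjusted p beside them.

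The genes whose levels over the 6 samples were most like those of a member, by Pearson correlation over 11343 other genes, are given as a description. For Gfap Gnas is given (0.990) and for Gja1 Uqcrh (0.996). For S100b they were Abce1 (0.996) and Kcnip2 (0.991), and for Slc1a3 Dda1 (0.999) and Eno1 (0.997). They were Sptlc3 (0.982) and Ankh (0.979) for Slc1a2 and RGD1565959 and Cyfip2 (both 0.993) for Aqp4. The samples share slides, and over so few of them 16 to 233 genes reached a correlation above 0.95 with a member.

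Among 40 other astrocyte genes tested of 45 listed, 1 rose and 2 fell in depression-susceptible against control (median -0.11), 2 rose and 7 fell in anxiety-susceptible (median -0.13), and 3 rose and 5 fell in insusceptible (median -0.082). Higher and lower calls over all probes were 6.75% and 3.14%, 13.5% and 16.5%, and 15.9% and 14.3% in these comparisons. With quantile normalization the list's counts became 2 higher and 2 lower, 8 and 4, and 11 and 5, with medians of 0.099, 0.011 and 0.091, so the sign of the median depends on the scaling. That normalization called 10.1%, 30.5% and 28.6% of all probes in either direction. Ednrb, the endothelin B receptor, stood at -2.09 and -2.13 in control samples, -3.38 and -3.45 in depression-susceptible ones, -4.33 in the anxiety-susceptible one and -3.91 in the insusceptible one. Ednrb fell by 1.31 (SE 0.076, adjusted p = 0.00531), fell by 2.22 (SE 0.093, adjusted p = 0.00632) and fell by 1.80 (SE 0.093, adjusted p = 0.00596); with normexp background correction the last 2 were -1.32 and -1.11, still past the threshold.

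Slc39a12, a zinc transporter, fell by 1.16 in depression-susceptible (SE 0.084, adjusted p = 0.00793) and by 0.79 in anxiety-susceptible (SE 0.10, adjusted p = 0.0182). Gpr37l1, an orphan receptor of astrocytes, fell by 0.94 in anxiety-susceptible (SE 0.13, adjusted p = 0.0202) and 0.83 in insusceptible (SE 0.13, adjusted p = 0.0244); with quantile normalization these were -0.57 and -0.45, still past the threshold. Fabp7, the brain fatty acid binding protein, fell by 0.89 in insusceptible (SE 0.17, adjusted p = 0.0312; -0.51 with quantile normalization, still past it). In the other direction, Slc7a10, which carries serine and glycine, rose by 0.68 in anxiety-susceptible (SE 0.11, adjusted p = 0.0244) and 0.56 in insusceptible (SE 0.11, adjusted p = 0.0338). Median scaling gave 0.395 (adjusted p = 0.0992) and 0.23 (adjusted p = 0.274) for it. Gjb6 (connexin 30), the other main astrocyte connexin, rose by 0.71 in insusceptible (SE 0.13, adjusted p = 0.0315; median scaling 0.38 and 0.0559). Prodh, the proline dehydrogenase, rose by 0.57 there (SE 0.12, adjusted p = 0.0369; median scaling 0.23 and 0.138). Chrdl1, a secreted BMP antagonist, rose by 0.52 in anxiety-susceptible (SE 0.125, adjusted p = 0.0481; median scaling 0.24 and 0.137), and Sfxn5 by 0.63 in depression-susceptible (SE 0.10, adjusted p = 0.0412; median scaling 0.51 and 0.0513).

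The glutamate-glutamine cycle, the route that Slc1a2, Slc1a3 and Glul feed, had 22 of 23 listed genes tested. None passed limma in depression-susceptible against control (median -0.059). There 8 had an unadjusted p under 0.05 in limma, beside 30.5% of all probes. The 16 arrays taken as samples gave 3 higher and 8 lower, beside 50.7% of all probes in either direction. In the other groups 8 fell and 0 rose in anxiety-susceptible (median -0.32), and 8 fell and 1 rose in insusceptible (median -0.18). Of all probes, 16.5% fell and 13.5% rose, and 14.3% fell and 15.9% rose, in these groups. With quantile normalization 8 of the list fell and 2 rose, and 7 fell and 1 rose. It called 30.5% and 28.6% of all probes in either direction. Got1, the cytosolic aspartate aminotransferase, stood at 4.46 and 4.29 in control samples, 3.92 and 3.69 in depression-susceptible ones, 3.22 in the anxiety-susceptible one and 3.07 in the insusceptible one, and fell by 1.15 (SE 0.15, adjusted p = 0.0178) and 1.31 (SE 0.15, adjusted p = 0.0151) in the last 2 groups; quantile normalization gave -0.67 and -0.83, still past the threshold. Slc7a11, the cystine-glutamate exchanger through which astrocytes release glutamate, fell by 0.92 (SE 0.145, adjusted p = 0.0236) and 0.89 (SE 0.145, adjusted p = 0.0248) in them, where quantile normalization gave -0.51 and -0.485, still past it. Slc17a8, a vesicular glutamate transporter, fell by 1.14 in anxiety-susceptible (SE 0.092, adjusted p = 0.00961; -0.56 with normexp), and Slc25a22, a mitochondrial glutamate carrier, by 0.82 in insusceptible (SE 0.15, adjusted p = 0.0293; -0.31 and 0.0536 with quantile normalization). Slc38a3, which exports glutamine from astrocytes, rose by 0.43 in insusceptible (SE 0.0995, adjusted p = 0.0459; median scaling 0.0955 and 0.468).

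Of 11 tested partners of Aqp4 and Gja1 at endfeet and gap junctions, Gjb6 among them, 1 rose and 1 fell in depression-susceptible, 2 rose and 3 fell in anxiety-susceptible, and 1 rose and 2 fell in insusceptible against control (medians 0.089, -0.22 and 0.11). With quantile normalization 2 rose and 1 fell, 3 rose and 4 fell, and 3 rose and 2 fell (medians 0.21, -0.0033 and 0.14). Higher and lower calls over all probes were 6.75% and 3.14%, 13.5% and 16.5%, and 15.9% and 14.3% without that normalization. With it, 10.1%, 30.5% and 28.6% of all probes were called in either direction. Trpv4, a calcium channel found at endfeet, fell by 2.34 (SE 0.093, adjusted p = 0.00307), 1.01 (SE 0.11, adjusted p = 0.0145) and 2.14 (SE 0.11, adjusted p = 0.00611). With normexp the last 2 were -0.495 and -1.13, still past the threshold. The 10 choroid plexus markers counted below also fell least in anxiety-susceptible (medians -4.26, -2.23 and -4.44). The part of choroid plexus RNA in the values of Trpv4 was not tested. Dmd, whose short product Dp71 helps to anchor Aqp4, fell by 1.25 in anxiety-susceptible (SE 0.099, adjusted p = 0.00927) and 0.95 in insusceptible (SE 0.099, adjusted p = 0.0135). Agrn, a matrix proteoglycan of the vessel wall, rose by 0.46 in anxiety-susceptible (SE 0.094, adjusted p = 0.0374; 0.77 with quantile normalization, median scaling 0.17 and 0.339), and Gjb2 (connexin 26) fell by 0.66 there (SE 0.11, adjusted p = 0.0252). Aqp9, which carries water and glycerol, rose by 0.56 in depression-susceptible (SE 0.079, adjusted p = 0.0325; median scaling 0.44 and 0.0773) and 0.47 in anxiety-susceptible (SE 0.097, adjusted p = 0.0376; median scaling 0.18 and 0.308).

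**Figure D5:**
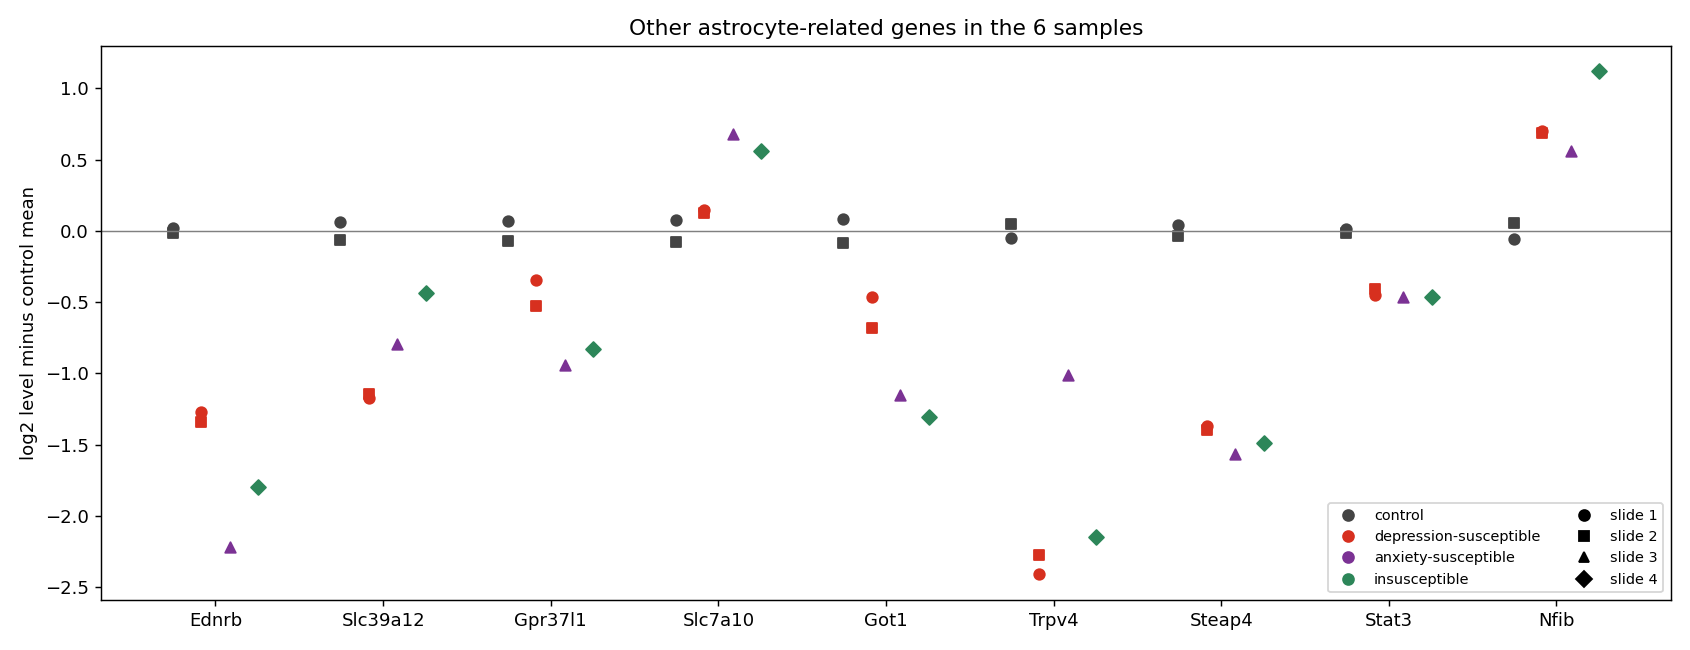
Log2 level minus the mean of the 2 control samples (y axis) for 9 genes of the other astrocyte-related lists (x axis), 1 point per sample, with colour for the group and shape for the slide. Steap4 lies between -1.37 and -1.57 in all stressed samples and Nfib between 0.56 and 1.12.

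Of 22 tested genes that rise when astrocytes become reactive, 1 rose and 2 fell in depression-susceptible, 1 rose and 4 fell in anxiety-susceptible, and 1 rose and 3 fell in insusceptible against control (medians 0.056, -0.25 and -0.12). With quantile normalization 2 rose and 1 fell, 1 rose and 7 fell, and 0 rose and 3 fell (medians 0.074, -0.34 and -0.23). Over all probes, higher and lower calls without that normalization were 6.75% and 3.14%, 13.5% and 16.5%, and 15.9% and 14.3%. With it, 10.1%, 30.5% and 28.6% of all probes were called in either direction. Steap4, a metalloreductase, stood at -1.76 and -1.83 in control samples, -3.16 and -3.19 in depression-susceptible ones, -3.36 in the anxiety-susceptible one and -3.28 in the insusceptible one, and fell by 1.38 (SE 0.076, adjusted p = 0.00491), fell by 1.57 (SE 0.093, adjusted p = 0.00672) and fell by 1.49 (SE 0.093, adjusted p = 0.00728). Stat3, a transcription factor that drives Gfap in reactive astrocytes, fell by 0.43 (SE 0.073, adjusted p = 0.0462), 0.46 (SE 0.089, adjusted p = 0.0329) and 0.46 (SE 0.089, adjusted p = 0.0328), and with quantile normalization the differences were -0.31, -0.24 and -0.24 and none passed (adjusted p = 0.0667, 0.0904 and 0.0898). Cxcl10, a chemokine, rose by 0.89 in depression-susceptible (SE 0.084, adjusted p = 0.0133) and fell by 1.01 in insusceptible (SE 0.10, adjusted p = 0.0134; -0.28 and 0.0788 with normexp). Aspg rose by 1.03 (SE 0.099, adjusted p = 0.012), and Emp1 fell by 0.65 (SE 0.11, adjusted p = 0.0281) and Lcn2, lipocalin 2, by 0.61 (SE 0.12, adjusted p = 0.0332; -0.30 with normexp) in anxiety-susceptible. Ptx3, a pentraxin, rose by 0.745 in insusceptible (SE 0.16, adjusted p = 0.0402), where quantile normalization gave 0.32 and 0.149 and median scaling 0.41 and 0.0691.

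Among 12 tested transcription factors of astrocytes, Stat3 included, 1 rose and 1 fell in depression-susceptible, 2 rose and 3 fell in anxiety-susceptible, and 1 rose and 2 fell in insusceptible against control (medians 0.078, -0.082 and -0.14). With quantile normalization 1 rose and 0 fell, 3 rose and 2 fell, and 2 rose and 1 fell (medians 0.11, 0.11 and 0.11). Of all probes, 6.75% rose and 3.14% fell, 13.5% and 16.5%, and 15.9% and 14.3% without that normalization. With it, 10.1%, 30.5% and 28.6% were called in either direction. Nfib stood at 0.99 and 1.099 in control samples, 1.75 and 1.73 in depression-susceptible ones, 1.60 in the anxiety-susceptible one and 2.16 in the insusceptible one, and rose by 0.69 (SE 0.081, adjusted p = 0.0215), 0.56 (SE 0.099, adjusted p = 0.0286; median scaling 0.27 and 0.103) and 1.12 (SE 0.099, adjusted p = 0.011). Nfia fell by 0.535 in anxiety-susceptible (SE 0.11, adjusted p = 0.0359), where normexp gave -0.15 and 0.268. Id4, an inhibitor of basic helix-loop-helix factors, fell by 0.52 (SE 0.087, adjusted p = 0.0256) and 0.53 (SE 0.087, adjusted p = 0.0254) in anxiety-susceptible and insusceptible, and Notch1 rose by 0.42 in anxiety-susceptible (SE 0.091, adjusted p = 0.0411; median scaling 0.13 and 0.419). In the 3 comparisons between stressed groups, 0 of the 104 genes of these 5 lists passed in limma. At an unadjusted p under 0.05, 28 were counted for depression-susceptible against insusceptible, 22 for anxiety-susceptible against insusceptible and 36 for depression-susceptible against anxiety-susceptible, and with quantile normalization 5, 0 and 20 passed. The shares of all probes at that unadjusted limit were the 30.5%, 11.1% and 31.5% given above. With quantile normalization 4.95%, 0.358% and 10.3% of all probes passed in these comparisons.

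Markers of other cells were counted in the same way. For depression-susceptible, anxiety-susceptible and insusceptible against control, higher and lower calls over all probes were 6.75% and 3.14%, 13.5% and 16.5%, and 15.9% and 14.3%. With quantile normalization, 10.1%, 30.5% and 28.6% of all probes were called in either direction. The summed signal of 10 choroid plexus markers, in multiples of the array's 75th percentile, was 108 to 126 in control, 28.5 to 33.45 in depression-susceptible, 119 to 138 in anxiety-susceptible and 11.8 to 12.3 in insusceptible arrays, and 10, 9 and 10 of the 10 fell against control. The exception was Ttr, transthyretin, named after its values were seen, at 0.53 in anxiety-susceptible (SE 0.16, adjusted p = 0.0752; 0.0189 with quantile normalization). That of 6 red blood cell genes was 1.36 to 1.41, 24.15 to 26.0, 0.9545 to 1.015 and 2.53 to 2.62, with 5, 0 and 4 of the 6 higher and 1, 2 and 1 lower. That of 11 neuron markers was 199 to 241, 154 to 182, 144 to 150 and 143 to 149, with 2, 6 and 6 lower and 0, 0 and 1 higher. Their median differences were -0.30, -0.73 and -0.60. With quantile normalization these were -0.11, -0.40 and -0.27, with 2, 5 and 5 neuron markers lower and 0, 2 and 3 higher. The summed signal of 40 other astrocyte genes was 676 to 820, 571 to 681.5, 693 to 711 and 677 to 688. Of 11 microglia markers 3, 4 and 2 fell, of 5 ependymal markers 1, 1 and 2 fell, and of 11 oligodendrocyte markers 0, 1 and 2 fell and 0 rose (medians -0.21, -0.34 and -0.175). With quantile normalization 1, 2 and 3 oligodendrocyte markers rose and 0, 1 and 2 fell, and their medians were 0.037, 0.064 and 0.225. Of 9 endothelial and mural markers 0, 1 and 2 rose, and 0 of 5 markers of oligodendrocyte precursors passed in any of the 3. Not well above background in any array of a group were Kl in depression-susceptible, Slc4a5 and Kl in insusceptible, Deup1 in control and in depression-susceptible, and Slc6a11 in insusceptible. The part of these shifts in the values of the astrocyte genes was not tested.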

How the data were processed

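After removal of ribosomal RNA, hippocampal RNA was copied from random primers and labelled with Cy3, per the labels' protocols. The authors deposited each spot's intensity as read by Agilent Feature Extraction 11.0.1.1, per the file headers. The deposited value table holds log2 values with nearly the same quantiles in each column and column medians of 7.49; it was an alternative only.

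Control and outlier spots were left out, spots of a probe averaged, and each array scaled to its 75th percentile. Of 24684 probes, 17885 well above background on at least 4 arrays were tested with limma 3.58.1 (R 4.3.3, Python 3.11.15), two-sided, with Benjamini-Hochberg adjustment. Symbols came from RefSeq target names through RefSeq's GRCr8 gene table (names only, 14294 probes matched). Alternatives took the 16 arrays as samples, alone or with slide or replicate number as a block, other scalings, filters, probe rules and normexp background correction with offset 50, and left out arrays and samples. Normexp used median signals, and 13 spots on 3 arrays whose background exceeded their signal by over 100 were left out of its fit.

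The members and gene lists were chosen with earlier results of these data known. Named besides the members are, per list and comparison, up to 3 genes in each direction among those past the threshold, and the 2 genes most correlated with each member, some of which are not reported here. The fit was tested on simulated data of 6 independent samples without slide effects, in which 200 probes had known changes. The simulation therefore does not cover the slide differences of these data. The number of arrays and slides limits the precision.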

Additional observations from a re-analysis of the deposited data

Results flagged for a closer look

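The second Slc1a2 probe in control stood at 1.41 on the array of replicate 1, and the nearest of the other control arrays was at 1.18. Its gap to the others was 0.846 of the range of the group, above Dixon's 95% limit for 4 values. It was the 1 such case among 32 combinations of member probe and group, and chance flags about 1 in 20. The brighter Slc1a2 probe stood at 2.19 on that array, within the 2.19 to 2.22 of the control group.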

How the results depend on the processing

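In the fit without slide, no member passed under 75th percentile scaling of the 6 samples. That fit also passed 0 when any array or sample was left out, with either filter, the median scaling or normexp. Taking the 16 arrays as samples called 4, 2 and 4 of 6 members for depression-susceptible, anxiety-susceptible and insusceptible against control, 3 in each comparison between stressed groups, and 6 by the F test. The shares of all probes were 50.7%, 71.3% and 73.0% against control and 86.6% by the F test. Between stressed groups they were 61.9% (depression-susceptible against insusceptible), 37.1% (anxiety-susceptible against insusceptible) and 61.8%. With the replicate number as a block, the counts were 4, 2, 4, 2 (depression-susceptible against insusceptible), 3, 3 and 6, beside 47.8%, 69.4%, 71.0%, 59.0%, 32.3%, 59.0% and 84.0% of all probes. Same-numbered control and depression-susceptible arrays lay on different slides. Across probes, their deviations from the group means had correlations of -0.557 to -0.444. The slide 1 minus slide 2 differences of these groups correlated at 0.721 across probes. The values therefore cannot show whether the numbers pair the samples. Slide as a random block gave 6, 1, 4, 2, 1, 3 and 6 members beside 58.2%, 56.8%, 57.3%, 40.2%, 11.1%, 42.2% and 74%. The fixed slide term gave 3 beside 38.3%. Quantile normalization and the deposited table each called 1 member in anxiety-susceptible and 2 in insusceptible against control, and 1 by the F test. Beside these, quantile normalization called 30.5%, 28.6% and 27.3% of all probes. The deposited table called 5049, 4786 and 4452 of its 17721 probes tested.

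Signs that turned, log2 values: for depression-susceptible against control, quantile normalization (with or without the slide term) gave 0.04 for Gfap, 0.04 for Slc1a2, 0.12 for Aqp4, 0.23 for its second probe and 0.19 for Gja1, and the values the authors deposited gave 0.04, 0.05, 0.13, 0.23 and 0.19. For anxiety-susceptible against control these gave 0.09 and 0.09 for Gfap, 0.18 and 0.19 for Slc1a2, and 0.10 and 0.10 for S100b. For insusceptible against control they gave 0.10 and 0.10 for Gfap, 0.02 and 0.02 for Slc1a3, and 0.01 and 0.03 for the second Slc1a2 probe. Between stressed groups they gave -0.03 and -0.03 for Slc1a3 (depression-susceptible against insusceptible), -0.01 and -0.01 for Gfap and -0.07 and -0.08 for Slc1a3 (anxiety-susceptible against insusceptible). Median scaling gave -0.09 for the second Slc1a2 probe in depression-susceptible, -0.21 for Gja1 in anxiety-susceptible, and -0.17 for Slc1a2, -0.20 for Aqp4 and -0.23 for Gja1 in insusceptible, against control. It also gave 0.10 for Gfap (depression-susceptible against insusceptible), 0.02 for Gja1 (anxiety-susceptible against insusceptible; 0.01 with normexp) and 0.15 for Slc1a2 (depression-susceptible against anxiety-susceptible; 0.00032 with normexp, 0.11 as the mean of its probes). The cause was not tested.

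Leaving out arrays or samples turned signs within these ranges: for depression-susceptible against control, -0.04 to 0.10 for the second Slc1a2 probe, -0.55 to 0.07 for Aqp4 and -0.31 to 0.08 for its second probe; for anxiety-susceptible against control, -0.11 to 0.26 for Gja1; for insusceptible against control, -0.18 to 0.45 for Aqp4 and -0.08 to 0.29 for Gja1; for depression-susceptible against insusceptible, -0.09 to 0.20 for Slc1a3 and -0.02 to 0.37 for S100b; for anxiety-susceptible against insusceptible, -0.01 to 0.03 for Slc1a3; and for depression-susceptible against anxiety-susceptible, -0.04 to 0.002 for Slc1a2 and -0.11 to 0.19 for Slc1a3. Counts over all probes also moved: 1770, 5366 and 5401 against control became 1453, 9401 and 9548 with normexp and 901, 2252 and 7849 with no filter, and median scaling gave 1388 higher and 6215 lower in anxiety-susceptible and 1468 and 6245 in insusceptible, against 2408 and 2958, and 2850 and 2551.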
